A study of Oryza sativa with 6 samples.

Results

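The genes described here are placed, by name or known role, in the synthesis of monolignols, the building blocks of lignin, or in attaching acid groups to them. They are 4CL-3, HCT2, CAD2, CAD8C and AT5, chosen by name from the symbols and synonyms of a gene table. These 5 genes had 6 probe sets of their own among the 57381 probe sets of the Affymetrix rice array, 2 of them for CAD8C. The samples were leaves of 30-day rice seedlings, and both groups belong to the cultivar Xiushui 11 (XS11). One group is the wildtype parent XS11 and the other is the transgenic line KMD, with 3 arrays of each. KMD is known as an insect-resistant rice with a bacterial toxin gene, although the labels name no transgene. The stated question was what lies behind unintended effects in KMD, approached through genes expressed at different levels in the 2 lines. KMD is a single line, so the inserted gene and any other change that arose in making the line cannot be told apart. The labels call the samples biological replicates and do not say how many plants each held.

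Monolignols are made from phenylalanine, which enters the pathway through phenylalanine ammonia-lyase (PAL). 4-Coumarate:CoA ligase (4CL) activates the resulting hydroxycinnamic acids as CoA thioesters, and hydroxycinnamoyltransferases (HCT) pass the acyl group to shikimate so that the ring can be modified. Cinnamyl alcohol dehydrogenases (CAD) carry out the last reduction to the alcohol, and laccases and peroxidases then couple the alcohols into lignin in the wall. Grasses also decorate monolignols and arabinoxylan with p-coumarate and ferulate, through acyltransferases of the BAHD family.

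All 6 arrays had a similar overall level, with median signals from 35.5 to 38.6 in linear intensity units. Across the tested probe sets, log2 signals correlated at 0.995 to 0.997 within a line and at 0.973 to 0.976 between lines. Most listed photosynthesis genes were bright, as the leaf label would have it: the small subunit gene rbcS of Rubisco, on its brightest probe set, had a mean ± SD of 16012 ± 112 over the 3 KMD arrays and 16111 ± 304 over the 3 XS11 arrays. Exceptions were RBCS1, at 19.5 ± 1.28 in KMD and 15.5 ± 2.01 in XS11, and the dimmest rbcS probe set, at 27.25 ± 3.96 and 24.5 ± 5.59. The comparison of the lines used limma on log2(signal + 11.17), with Benjamini-Hochberg adjustment over all 34355 probe sets in the upper 60% of mean signal. Differences below are KMD minus XS11 on this log2 scale, on which dim probe sets show less than their full change. Fold changes are these differences put back on a linear scale, so they come out smaller than ratios of the printed signals. The word "called" means an adjusted p under 0.05.

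Of the 5 genes, 4 were lower in KMD and CAD8C was higher, each on 1 tested probe set. The second CAD8C probe set was too dim to be tested. Over all tested probe sets, 39.8% were called, 21.7% lower and 18.1% higher in KMD. Over genes read on their brightest tested probe set, 33.0% were lower and 23.2% higher. A call by itself is thus common in this comparison. 4CL-3, CAD2, AT5 and CAD8C changed by at least 2-fold, and HCT2 by 1.93-fold. Called changes of at least 2-fold made up 1.21% of tested probe sets for those lower in KMD and 0.573% for those higher. The arrays of the lines did not overlap on any of the 5 tested probe sets, as on 48.9% of all tested ones. Every tested member was also brighter than the filter level in each line taken alone, so none was tested only because of the line in which it was high. The genes were picked with earlier results of these data known, so these counts are a description of the 5 genes.

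**Figure D1:**
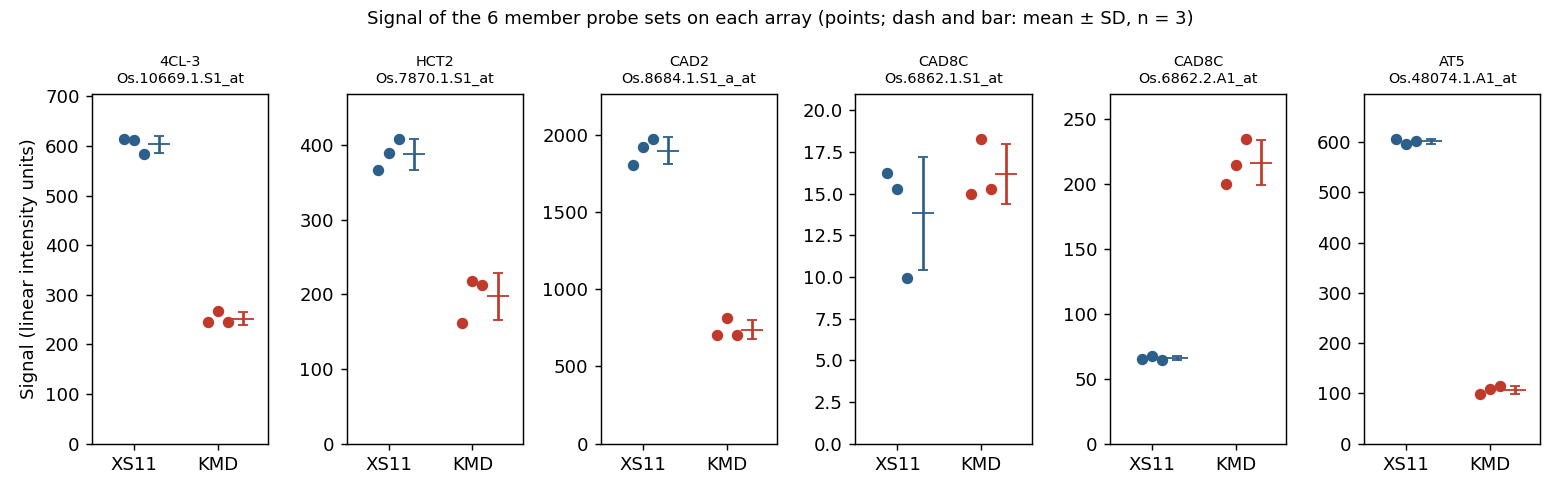
Signal of each member probe set (linear intensity units, each panel with its own axis from 0) on the 3 XS11 and 3 KMD arrays. Points are arrays, and the dash and bar beside them are the mean and SD. On 5 of the 6 probe sets the points of the lines are well apart, while those of the dim CAD8C probe set Os.6862.1.S1_at overlap.

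4CL-3 (LOC4328485, probe set Os.10669.1.S1_at) encodes a 4-coumarate:CoA ligase that is known in rice as a main isoform for lignin. Its signal was 244, 267 and 244 on the KMD arrays and 614, 612 and 583 on the XS11 arrays. Every KMD array was thus below every XS11 array, with a gap of 316 units between the nearest pair. The fall was 1.22 on the log2 scale (difference -1.22, SE 0.05, 95% interval -1.33 to -1.12, limma adjusted p = 3.54e-10), which is 2.33-fold. Only 240 of the tested probe sets had a lower difference.

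The other true 4CL genes moved the same way by less. 4CL4, listed also as RAL1 and named for aluminium resistance, fell by 0.78 (492.6 ± 22.0 in KMD against 856 ± 25.3 in XS11). 4CL5, 4CL1 and 4CL2, named here as the remaining members of the family, had differences of -0.68, -0.54 and -0.53, all called. The 95% interval of 4CL-3 lay below that of 4CL4 (-0.88 to -0.69), the largest fall among these 4. A second, dimmer probe set of 4CL4 read 49.3 ± 2.63 in KMD and 43.4 ± 5.11 in XS11 and was not called (difference 0.15, adjusted p = 0.218 in limma). Of the 4CL-like genes, whose substrates are less well known, 4CLL7 dropped from 743 ± 8.74 to 32.7 ± 3.42 (difference -4.11), 4CLL1 had a difference of -0.16 and 4CLL4 was not called. In all, 7 of 8 tested genes of the 4CL and 4CL-like list were lower and 0 were higher in KMD by limma. At an unadjusted limma p under 0.05, again 0 were higher. Over all genes read on their brightest tested probe set, 33.0% were lower and 23.2% higher.

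HCT2 (LOC4329959, probe set Os.7870.1.S1_at) is named as a hydroxycinnamoyltransferase, the enzyme class of the shikimate ester step. It read 161, 218 and 212 on the KMD arrays and 366, 389 and 408 on the XS11 arrays. The groups did not overlap, and KMD replicate 1 lay below the other 2 KMD arrays, which gave HCT2 the widest relative spread of the tested members (SD 15.8% of the mean in KMD and 5.37% in XS11). HCT2 fell by 0.95 (difference -0.95, SE 0.09, 95% interval -1.14 to -0.75, limma adjusted p = 1.49e-06), a 1.93-fold change. Without KMD replicate 1 the difference was -0.82 and was still called.

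The relatives of HCT2 did not pass the test. HCT1 read 734 ± 23.5 in KMD and 778 ± 47.4 in XS11 (difference -0.08, 95% interval -0.18 to 0.02). HCT3, listed also as PHT1, had differences of 0.03 and 0.09 on its 2 probe sets. Of the 3 tested genes of this list, HCT2 was therefore the one called, where 33.0% of all genes were lower. With the arrays centred on spiked-in control RNA, a scaling that moved nearly all probe sets down in KMD, HCT1 (-0.70) and HCT3 (-0.59 on its brightest probe set) were called lower too.

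CAD2 (LOC4328552, probe set Os.8684.1.S1_a_at) is the GH2 gene, named for the gold hulls and internodes of its mutant, and encodes the cinnamyl alcohol dehydrogenase known for lignin synthesis in rice. The KMD arrays read 703, 811 and 702, and the XS11 arrays read 1802, 1920 and 1971. The lowest XS11 array exceeded the highest KMD array by 991 units. CAD2 fell by 1.35 (difference -1.35, SE 0.05, 95% interval -1.47 to -1.23, limma adjusted p = 4.16e-10), which is 2.55-fold. This interval overlaps that of 4CL-3, so the order of these 2 falls is not resolved. The ending a_at marks a probe set that can read several transcripts of a gene.

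CAD8C (LOC9269515) went the other way on the probe set Os.6862.2.A1_at. It read 200.04, 215 and 234 on the KMD arrays and 65.1, 67.6 and 64.5 on the XS11 arrays. All KMD arrays were higher, by at least 132 units. The rise was 1.56 (SE 0.07, 95% interval 1.41 to 1.71, limma adjusted p = 1.05e-09), or 2.95-fold, and 92 of the tested probe sets had a higher difference. CAD8C belongs to the CAD family by its name, and whether its product reduces monolignol aldehydes in the leaf is not something the tables show.

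The second CAD8C probe set, Os.6862.1.S1_at, did not show this rise. It read 14.96, 18.3 and 15.3 in KMD and 16.3, 15.3 and 9.94 in XS11. These values overlap and lie close to 11.17, the 10th percentile of all signals, and the probe set fell under the signal filter. With no filter its difference was 0.14 (SE 0.11, 95% interval -0.09 to 0.37, limma adjusted p = 0.445). The rise of CAD8C thus rests on 1 of its 2 probe sets. The tables used here do not say which part or strand of the transcript each probe set reads.

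In the gene table CAD8C stands in a row of like-named genes, CAD8A, CAD8B, CAD8C and CAD8D, of which CAD8A also has a probe set. CAD8A read 29.2, 38.8 and 27.7 in KMD and 42.5, 40.7 and 43.8 in XS11. It was lower in KMD by a small amount (difference -0.32, SE 0.10, limma adjusted p = 0.0215), opposite to CAD8C. Probe sets of closely related genes can take signal from one another. Among the other CAD genes, CAD6 was lower at 32.6 ± 0.49 against 58.1 ± 7.67 (difference -0.66), CAD3 had a called difference of -0.19 and CAD1 one of -0.07 that was not called. CAD7, the flexible culm gene FC1, and the cinnamoyl-CoA reductase gene CCR1 were too dim to be tested. Of 6 tested reductase genes, 1 was higher and 4 were lower in KMD, beside 23.2% higher and 33.0% lower over all genes.

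AT5 (LOC4338283, probe set Os.48074.1.A1_at) encodes a BAHD acyltransferase, known in rice as a feruloyl-CoA monolignol transferase, which puts ferulate on monolignols. It read 98.6, 109 and 114 on the KMD arrays and 606, 596 and 603 on the XS11 arrays. The groups were 482 units apart at their nearest, and the XS11 arrays differed among themselves by an SD of 0.842% of their mean. AT5 fell by 2.37 (difference -2.37, SE 0.05, 95% interval -2.49 to -2.26, limma adjusted p = 2.01e-12), which is 5.18-fold. This was the largest change among the 5 genes, and 25 of the 34355 tested probe sets had a lower difference.

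The other tested BAHD genes were also lower on their brightest probe set. AT4, the p-coumaroyl-CoA monolignol transferase listed as PMT, read 59.6, 69.6 and 70.4 in KMD and 138, 146 and 148 in XS11. It fell by 1.0 (difference -1.0, SE 0.07, limma adjusted p = 1.72e-07). AT7 fell by 0.71 (287 ± 24.7 against 475 ± 29.7), and AT9 had differences of -0.56, called, and 0.13, not called, on its 2 probe sets. The interval of AT5 lay below that of AT4 (-1.16 to -0.84). AT1 and AT15 were too dim to be tested. All 4 tested genes of this list were thus lower in KMD on their brightest probe set, where 33.0% of all genes were lower.

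**Figure D2:**
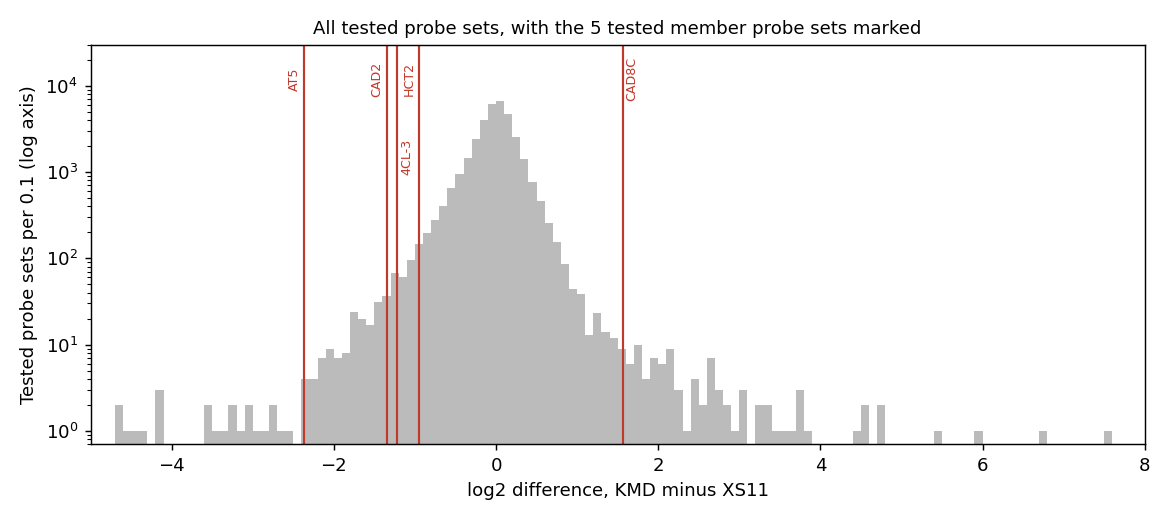
Histogram of the log2 difference (KMD minus XS11) of all 34355 tested probe sets, in steps of 0.1 and with a log count axis. Red lines mark the 5 tested member probe sets, of which AT5 at -2.37 and CAD8C at 1.56 lie far out on either side.

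Around these genes, the rest of the phenylpropanoid and lignin pathway leaned the same way. Of 40 pathway genes with a probe set, 31 were tested, and on their brightest tested probe set 24 were lower, 1 was higher and 6 were not called. The 1 higher gene was CAD8C. Leaving out the 5 genes described above, 20 of 26 (76.9%) were lower and 0 were higher, with a median difference of -0.55. At an unadjusted limma p under 0.05, again 20 were lower and 0 higher. Over all 14790 genes read the same way, 33.0% were lower and 23.2% higher, and the median was -0.03. With no filter on signal, 26 of the 40 genes were lower and 1 was higher, where 27.1% of all genes were lower and 18.7% higher. The lists were made with earlier results of these data known, and they hold only genes that the table names, so steps such as cinnamate 4-hydroxylase and the regulators of secondary walls had no gene to read.

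At the entry of the pathway, the 2 PAL genes that could be found by name fell, and any others were not read. ZB8 dropped from 151 ± 11.8 to 76.0 ± 11.5 (difference -0.90) and the gene listed as PAL from 3660 ± 128 to 2293 ± 137 (difference -0.67). All 5 probe sets of PAL were lower in KMD, by differences from -1.13 to -0.54. Several of these, and the brightest ones of ZB8 and ROMT-17, have the ending x_at, for probe sets that can also take signal from related genes. The 5 are therefore not taken as independent readings of PAL. Of the methyltransferase genes, ROMT-15 fell by 0.67 (1807 ± 33.8 against 2874 ± 22.8) and ROMT-17 by 0.51. ROMT-17 had 3 called probe sets and a dim one that was not called (difference 0.06).

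At the polymerization end, 4 of 6 tested genes were lower and 0 were higher, beside 33.0% lower and 23.2% higher over all genes. LAC4, a laccase, fell from 128 ± 4.47 to 61.6 ± 3.86 (difference -0.93) and LAC7 from 580.5 ± 34.4 to 312 ± 32.6 (difference -0.88). LAC3 read 17.9, 22.7 and 15.3 in KMD and 40.8, 48.7 and 48.6 in XS11 (difference -0.95). Its KMD mean lay under the filter level, so LAC3 was tested only through its signal in XS11. LAC20 (difference 0.08) and the peroxidase PRX112 (0.15) were not called. The other 5 genes of this list, LAC15, LAC19, LAC23, LAC24 and PRX74, were too dim to be tested. With no filter LAC24 (18.4 ± 0.67 against 31.6 ± 3.23, difference -0.53) and LAC19 (-0.31) were called lower. LAC23 (-0.20), PRX74 (-0.15) and LAC15 (0.08) were not called then. Nor were the dim genes of the other lists, CAD7 (0.07), CCR1 (0.11), AT1 (-0.07) and AT15 (-0.14).

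**Figure D3:**
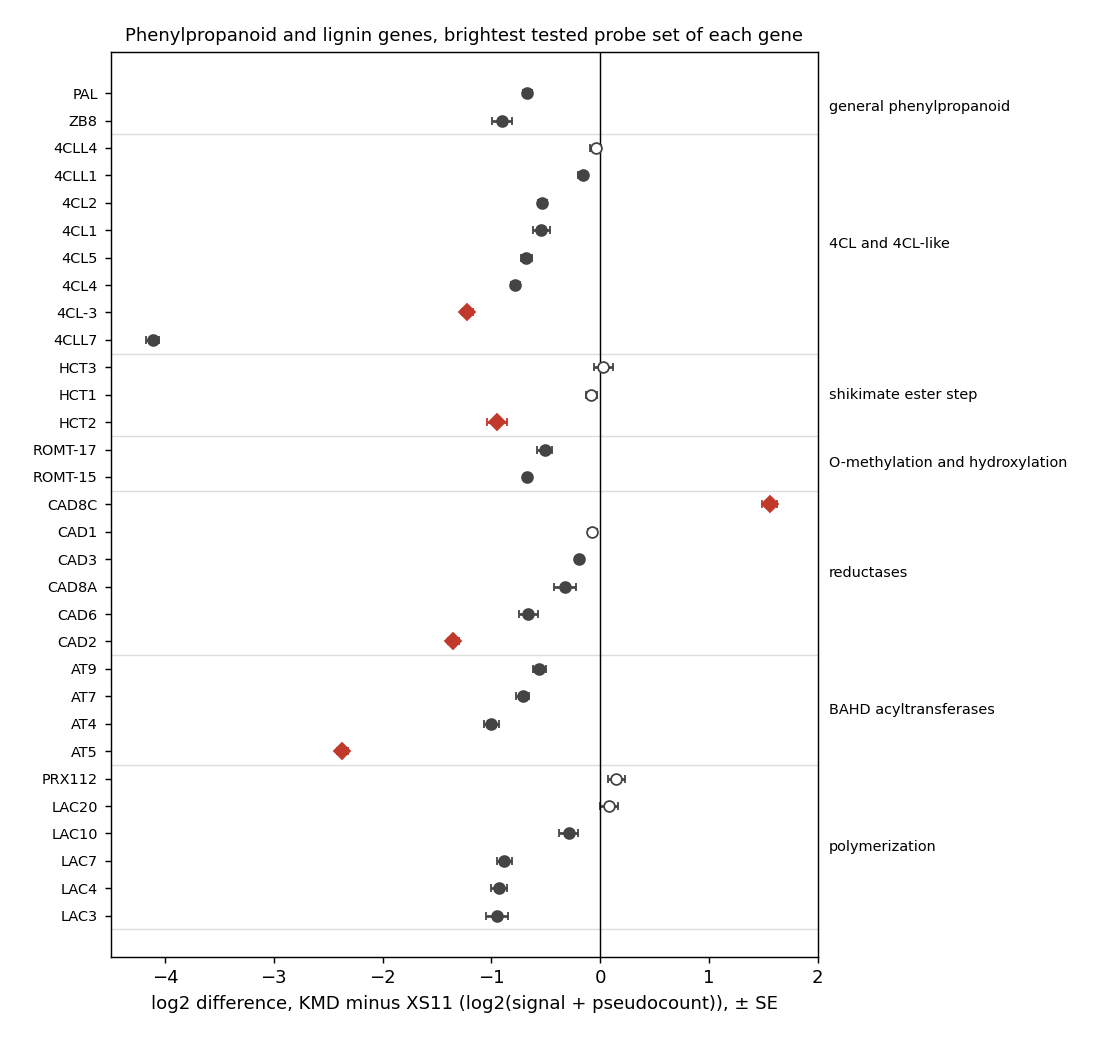
Log2 difference (KMD minus XS11, ± SE, 3 arrays a line) of 31 pathway genes by step, from their brightest tested probe set. Red diamonds are the 5 genes described in detail, filled symbols are called and open symbols are not. CAD8C at 1.56 is the one called gene to the right of 0.

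Several measures of the samples moved with the lines beside these results. Leaf RNA is a mixture, in which fewer cells of a type and less RNA per cell cannot be told apart. Of 6 listed markers of xylem and fibre cells, which make lignified walls, 5 were tested by limma, 4 were lower and 0 were higher (also 0 at an unadjusted p under 0.05). The secondary wall cellulose synthase gene CESA4 had a difference of -0.71 on its brightest probe set and a smaller one, -0.31, on its other. The xylan gene IRX14 had a difference of -0.46 and CESA7 and CESA9 ones of -0.37 and -0.25, while BC1 was not called (-0.05). Their summed signal, with the 1 dim marker included, was 760 to 841 in KMD and 1049 to 1132 in XS11. None of these markers read 0. The dim marker, the xylan gene IRX9, read 18.1 ± 2.05 in KMD and 35.4 ± 1.65 in XS11. Of the leaf markers 0 of 6 tested rose and 2 fell, rca by 0.18 and LFNR1 by 0.28 on their brightest probe sets, and the summed signal was 60540.4 to 61818 against 63909.7 to 65041. Of the root markers 2 of 3 tested fell, Lsi1 by 0.53 and IRT1 by 0.50, and 0 rose, with summed signals of 302 to 336 against 406 to 460.04. Of the seed markers 2 of 5 tested rose, waxy by 0.53 and GLUA-2 by 0.43 on their brightest probe sets, and 0 fell, although with spike-in centring these differences were -0.09 and -0.19, and the sums were 1043 to 1101 against 825 to 844. The other 3 tested probe sets of waxy were not called, and a second, dimmer probe set of the leaf marker GLO1 was called higher (difference 0.19, limma adjusted p = 0.00167; -0.43 with spike-in centring). These counts stand beside 33.0% lower and 23.2% higher over all genes, and the share of leaf markers that fell, 33.3%, was close to the first. The counts of 0 in these marker lists were also 0 at an unadjusted limma p under 0.05. The part of cell makeup in the pathway result was not tested.

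Control transcripts are read at both ends, and the 3' signal over the 5' signal reflects RNA integrity. This ratio also differed between the lines. It was 5.64 to 5.91 in KMD and 4.30 to 4.88 in XS11 for the actin control, and 3.44 to 3.54 against 2.61 to 2.99 for GAPDH. For ubiquitin every KMD array was likewise above the XS11 arrays, which read 0.958 to 1.01. For cyclophilin, where KMD was the lower, it was 0.84 to 0.955 in KMD and 1.01 to 1.10 in XS11. The part of these ratios in the result was not tested. All 36 probe sets for spiked-in poly-A RNA, which is added before labelling, were higher in KMD, by 0.62 on average. Centring the arrays on them moved the median of all tested probe sets to -0.62, gave 324 higher and 32550 lower calls in place of 6226 and 7440, and lowered each of the 5 differences by a like amount. On that scale 30 of the 31 tested pathway genes were called lower and 1 higher. CAD8C was that gene (difference 0.94), and AT5 (-3.0), CAD2 (-1.97), 4CL-3 (-1.84) and HCT2 (-1.57) were still lower.

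**Figure D4:**
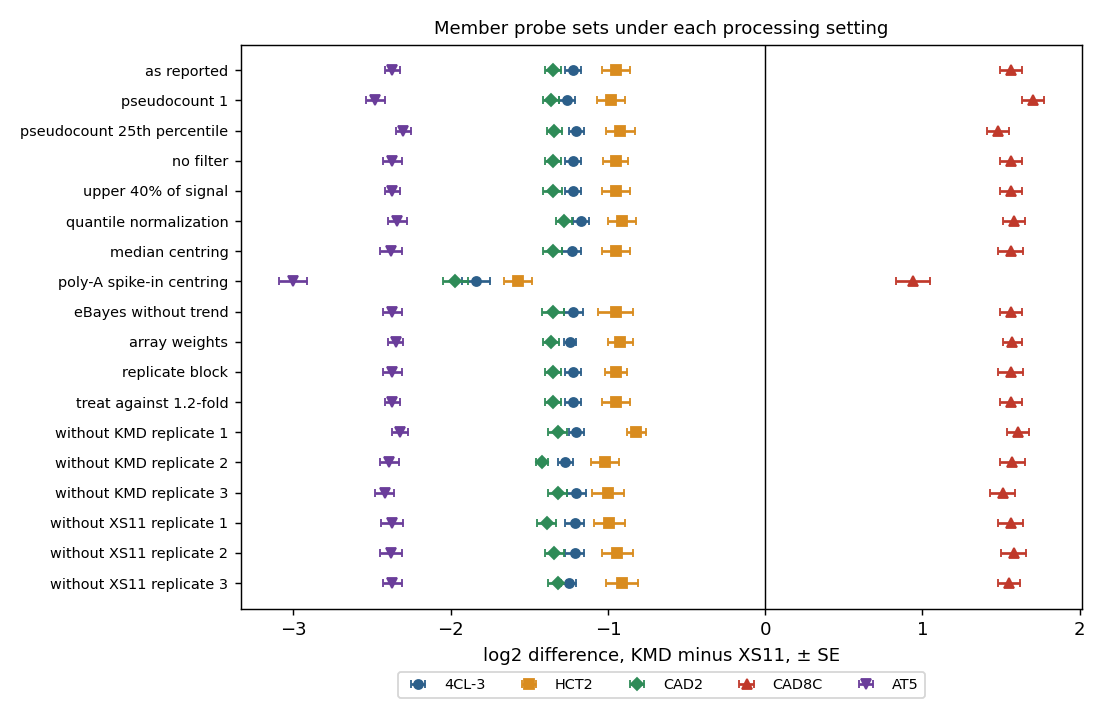
Log2 difference (KMD minus XS11, ± SE) of the 5 tested member probe sets under each of 18 settings, 1 row a setting. The order of the genes and the side of 0 are the same in every row, and the spike-in row is shifted to lower values.

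The genes whose array profile was closest to each member were found among 2039 named genes, by the root-mean-square difference of centred log2 values over the 6 arrays. Because this measure takes in the size of the difference between the lines, it picks genes that changed by a like amount. For 4CL-3 they were HSF23 (0.026), a heat stress factor, CM-LOX2 (0.039), a lipoxygenase, and KS10 (0.048), named as a kaurene synthase-like gene. For HCT2 the nearest was AT4 (0.073), from the same pathway, followed by ACO1 (0.094) and MST3 (0.103). For CAD2 they were APX7 (0.065), an ascorbate peroxidase, D53-L (0.070) and the aquaporin TIP4-1 (0.077). For CAD8C they were XRT5 (0.058), ABA8OX1 (0.084), an abscisic acid 8'-hydroxylase, and CIPK14 (0.132). AT5 was closest to ASMT (0.078), an N-acetylserotonin methyltransferase, and the next were CYP71P1 (0.236) and AMT3-2 (0.238), which fell by less. In KMD the mean log2 levels of ASMT (5.01) and KS10 (5.26) lay under the filter level of 5.28, so these genes were among those compared only through their signal in XS11.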

How the data were processed

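Total RNA was extracted with Trizol and biotinylated cRNA was made from 6 µg of it, per the labels' protocols. The authors deposited 1 linear intensity per probe set and array. The submitters' processing notes name MAS5; its version and scaling are not given in the sources used. Detection calls and scanner files were not used here.

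A platform annotation gave 1 gene to 22436 probe sets, several to 95 and none to 34850. Every one of these gene IDs was present in a RefSeq table (assembly ASM3414082v1), the source of symbols and synonyms. Synonyms that the table gives to another gene (MYB30 for MYBS3, RAG for MADS3, BC1 for bHLH081) were left out.

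Values were taken as log2(signal + 11.17), the added value being the 10th percentile, with no further normalization. Probe sets other than array controls in the upper 60% of mean log2 signal (above 5.28) were fitted with limma (lmFit, eBayes with trend, two-sided), without the replicate number. The fit was tested on simulated data. Lists use the brightest tested probe set of each gene. The rule for named genes takes every member, up to 3 called genes per list and direction, and the 3 nearest profiles of each member; other relatives of the members were named after their values were seen. The members and lists were chosen with earlier results of these data known. The number of arrays limits the precision. Alternatives are listed in the closing section. The fits ran in limma 3.58.1 under R 4.3.3, and tables were summarised with pandas 2.3.3 and scipy 1.17.1 in Python 3.11.15 and drawn with matplotlib 3.10.9.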

Additional observations from a re-analysis of the deposited data

How the results depend on the processing

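Each of the 5 tested member probe sets kept its direction and its call in limma under all 17 alternatives: leaving out each of the 6 arrays, a replicate block, weights per array, pseudocounts of 1 and 18.5, no filter or the top 40% of signal, scaling by quantiles, by medians or by spike-ins, no intensity trend in eBayes, and a test against a 1.2-fold change. The differences ran from -3.0 to -2.30 for AT5, -1.97 to -1.28 for CAD2, -1.84 to -1.17 for 4CL-3, -1.57 to -0.82 for HCT2 and 0.94 to 1.70 for CAD8C, and the largest adjusted p was 0.000287, for HCT2. Leaving out 1 array gave -2.42 to -2.32 for AT5 and -1.02 to -0.82 for HCT2. Of the pathway genes, read on their brightest probe set, 20 to 30 were lower and 1 was higher under these 17 alternatives. The count lower was 22 to 24 when 1 array was left out and 20 against the 1.2-fold change. The number tested was 31, but 40 with no filter and 26 in the top 40% of signal. Over all 34355 tested probe sets, 2567 were lower against the 1.2-fold change and 32550 with spike-in centring. Counting all tested probe sets of each pathway gene gave 31 lower and 1 higher, where the pathway genes had 53 probe sets, tested or not. Of all tested probe sets on the array, 21.7% were lower and 18.1% higher. Arrays with the same replicate number did not deviate together (correlations of -0.243, -0.00781 and -0.255), so the numbers are not taken to pair the samples. With the replicate block 12448 probe sets were called in place of 13666, AT5 had a difference of -2.37 (limma adjusted p = 1.76e-10), and 24 pathway genes were lower. No hybridization batch was at hand, so batch and line cannot be told apart. Low signal kept 9 pathway genes, the second probe set of CAD8C and the dimmer probe set of PRX112 (difference -0.13 with no filter) out of the test.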

Other observations

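The genes next to the 5 members in the RefSeq gene order did not share the size of their changes. Up to 4 protein-coding genes on each side of each member were read, of which 24 genes had a tested probe set. Their 31 probe sets had differences between -0.50 and 0.63, with 13 called higher and 7 called lower. Of all tested probe sets 39.8% were called, while over genes read on their brightest tested probe set 33.0% were lower and 23.2% higher. The gene before 4CL-3, LOC4328484, was higher in KMD on both of its probe sets (0.63 and 0.54), while 4CL-3 was lower. Near HCT2, LOC4329962 was lower by the most of these probe sets (difference -0.50, and -1.12 with spike-in centring), the same direction as HCT2. Beside AT5, LOC9267107 was higher by 0.54, and beside HCT2 the gene LOC4329958 was higher by 0.33. With spike-in centring the differences were 0.01 and -0.08 for LOC4328484, -0.08 for LOC9267107 and -0.29 for LOC4329958, so these directions depend on the scaling. The positions in the genome of the transgene were not analysed here.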
